A study of Mus musculus with 5 samples.

Results

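Vascular endothelial growth factors (VEGFs) and angiopoietins are secreted proteins that act on receptor tyrosine kinases, best known from the endothelial cells that line blood vessels. Vegfa, Vegfb and Vegfc encode VEGF ligands, Kdr and Flt1 their receptor kinases VEGFR2 and VEGFR1, and Nrp1 the co-receptor neuropilin-1. Angpt1 and Angpt2 encode the angiopoietins, Tek their receptor TIE2, and Tie1 the related receptor TIE1. These 10 genes were taken by symbol from a table of 22683 genes, and all 10 were found and passed the filter on low values. In skeletal muscle, satellite cells, the resident stem cells, lie close to capillaries. They have been described to make VEGF-A and to carry TIE2, whose ligand angiopoietin-1 has been tied to their resting state.

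RNA was sequenced from satellite cells described as quiescent, which were sorted from mdx mice (3 libraries) and from wild-type mice (2 libraries). The mdx strain carries a mutation in Dmd, the dystrophin gene, and is a model of Duchenne muscular dystrophy. No treatment, time, age, strain background, sorting gate or muscle is given for either group in the sources used here, nor is it said that each library is a different animal, so the p-values reflect only library-to-library spread, part of which may be technical. Values are normalized counts: the reads of a gene scaled by 1 factor per library, set on the typical gene and not on library totals, and rounded.

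Library totals were 12473348 to 15930638 normalized counts in mdx and 15217054 and 16825045 in wild type. Dmd read 4642, 4116 and 3700 in mdx, against 11826 and 9266 in wild type. Xist, the X-inactivation RNA of female cells, read 0, 0 and 12 in mdx and 30235 and 30176 in wild type, so genotype and sex cannot be told apart in any result. The satellite cell marker Pax7 was abundant in every library, at 12767, 9751 and 14989 in mdx and 9103 and 7644 in wild type. Together, 12 satellite cell markers summed to 54351 to 76563 in mdx, against 114944 to 126602 in wild type. Sdc4 and Chodl made up much of the wild-type sums: without them, an alternative added after seeing the data, the other 10 markers summed to 52007, 47164 and 66191 in mdx and 68033 and 57871 in wild type, which overlap. The 20 endothelial markers outside the 10 genes summed to 22298 to 27432 in mdx, against 747 to 823 in wild type, and 7 of the 20 were at 0 in both wild-type libraries. The part of these other cell types in the results on the 10 genes was not tested, and fewer cells of a type cannot be told apart from less RNA per cell.

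The largest differences of the 10 between the genotypes were those of 4 receptor genes, Tek not among them. Kdr, Flt1, Nrp1 and Tie1 rose in mdx, Tek and Vegfa fell, and Vegfb, Vegfc, Angpt1 and Angpt2 did not pass the test (limma on log2(normalized count + 2), Benjamini-Hochberg adjusted p under 0.05 over 18199 tested genes). Of the 10 genes, 4 were therefore called higher and 2 lower. Over all tested genes, 14.6% were called higher and 10.3% lower, together 24.9%. The share called higher among the 10 lay above that of all genes, as a description of a chosen list. The 2 lower calls are too few to be set apart from the 10.3%. They became 1 with equal library totals and 0 without mdx 2 or mdx 3. The median log2 fold change of the 10 was 1.47, against 0.13 over all tested genes. For 8 of the 10, all but Vegfc and Angpt1, every mdx library lay on the same side of both wild-type libraries, which was also so for 52.0% of all tested genes.

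**Figure D1:**
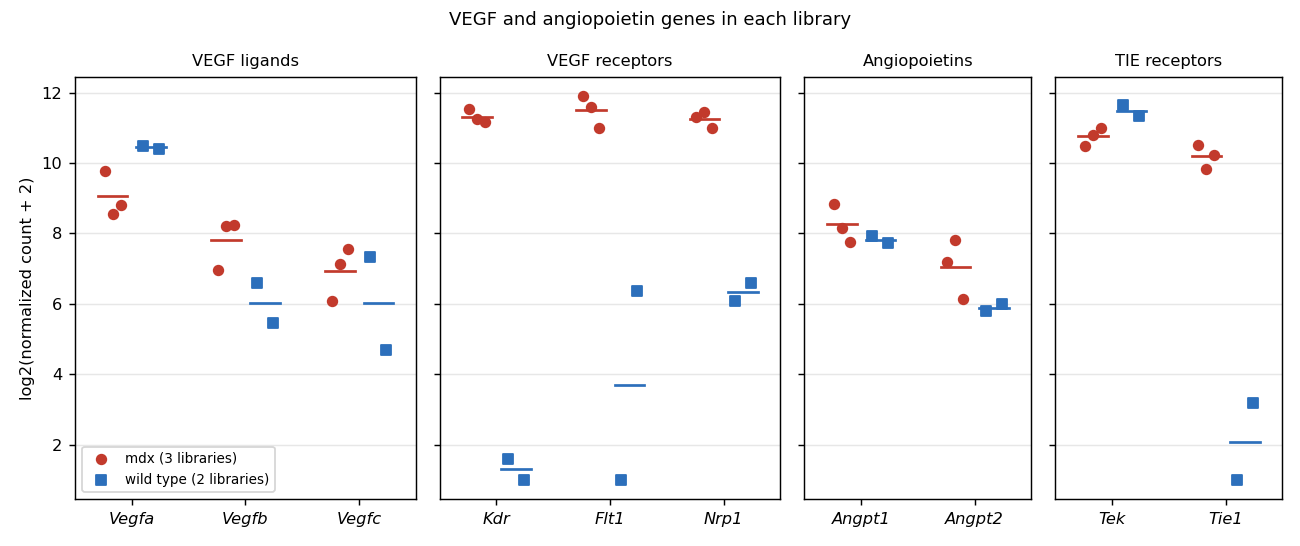
Values of the 10 genes in each library, as log2(normalized count + 2) on the vertical axis; circles are the 3 mdx libraries, squares the 2 wild-type libraries, and bars the group means. The Kdr, Flt1, Nrp1 and Tie1 circles lie far above the squares, Tek and Vegfa circles lie below them, and the Vegfc and Angpt1 groups overlap.

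Kdr, the main signalling receptor for VEGF-A on endothelium (ENSMUSG00000062960, chromosome 5, 75932827 to 75978458, mm10, minus strand), had 2947, 2424 and 2301 normalized counts in mdx, against 1 and 0 in wild type. The wild-type libraries together held about 1 read, so Kdr was close to undetected there and well measured in every mdx library. The ratio of the group means was 5115, with a 95% counting interval of 918 to 202019 (exact Poisson, counting error only). On the log2(normalized count + 2) scale the difference was 10.02 with a limma adjusted p = 7.79e-06 (SE 0.50, 95% interval 8.89 to 11.15).

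Flt1, which encodes a receptor that binds VEGF-A tightly and signals weakly, and whose soluble form is a VEGF decoy (chromosome 5, 147561604 to 147726011, minus strand), had 3808, 3107 and 2044 normalized counts in mdx, against 0 and 80 in wild type. Every mdx library was above both wild-type libraries, which themselves differed, with Flt1 listed at 0 in 1 of them. Flt1 rose by 7.82 on the log2 scale, with a 95% interval of 4.99 to 10.65 (SE 1.24, limma adjusted p = 0.00266). It was 5.14 without wild type 1 and 10.50 without wild type 2. With no filter on low values the call ended (limma adjusted p = 0.0732). The table gives 1 value for the gene and does not separate the soluble from the membrane form.

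Nrp1, whose product presents VEGF to KDR and also serves semaphorin signalling in nerve cells (chromosome 8, 128359284 to 128503363, plus strand), had 2556, 2797 and 2056 normalized counts in mdx, against 66 and 95 in wild type. It was thus present in all 5 libraries, with a rise of 30.2-fold (log2 fold change 4.92, SE 0.29, limma adjusted p = 1.65e-05). Leaving out any library gave log2 fold changes between 4.66 and 5.17.

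The TIE receptors moved in opposite directions. Tie1, which encodes an orphan-like partner of TIE2 with no high-affinity ligand of its own (chromosome 4, 118471191 to 118490061, minus strand), had 1457, 916 and 1190 normalized counts in mdx, against 0 and 7 in wild type. The ratio of the means was 339, with a counting interval of 172 to 786, and Tie1 rose by 8.11 on the log2 scale (SE 0.73, limma adjusted p = 0.000121).

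Tek, the angiopoietin receptor gene (ENSMUSG00000006386, chromosome 4, 94739289 to 94874976, plus strand), had 1429, 1790 and 2025 normalized counts in mdx, against 3223 and 2568 in wild type. Here the wild-type libraries were the high ones, all 3 mdx libraries lay below them, and the means were 1748 ± 300.2 (SD, n = 3) in mdx and 2895.5 ± 463 (SD, n = 2) in wild type. Tek fell 1.66-fold (log2 fold change −0.73, SE 0.22, 95% interval −1.23 to −0.24, limma adjusted p = 0.0392). The call held in 6 of 14 alternative analyses. The limma adjusted p was 0.117 without mdx 1, 0.103 without mdx 2 and 0.0674 without mdx 3. It was 0.0974 under the replicate block, which adds the library number as a term. As number 3 occurs only in mdx, the block gave the same log2 fold change as leaving out mdx 3 (−0.85). Without wild type 1 the log2 fold change was −0.57. The log2 fold change was negative in all 14, from −1.11 to −0.54. With libraries scaled to equal totals, the median of all genes was 0.31, against 0.13 under the authors' scaling, and Tek was at −0.54 (limma adjusted p = 0.210). Relative to those medians Tek was at −0.86 with equal totals and −0.87 under the authors' scaling.

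The ratio of Tie1 to Tek was computed per library as log2((Tie1 + 2)/(Tek + 2)), which compares libraries and not the amounts of both transcripts. It was 0.03, −0.97 and −0.77 in mdx, against −10.66 and −8.16 in wild type, a difference of 8.84. The exact permutation test over libraries gave p = 0.2 (two-sided), the smallest value that 3 against 2 libraries can give. All 3 mdx libraries lay above both wild-type libraries, in which Tie1 was at 0 and 7 normalized counts. This order and the p had to follow, since Tie1 was higher and Tek lower in every mdx library. They add no support.

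**Figure D2:**
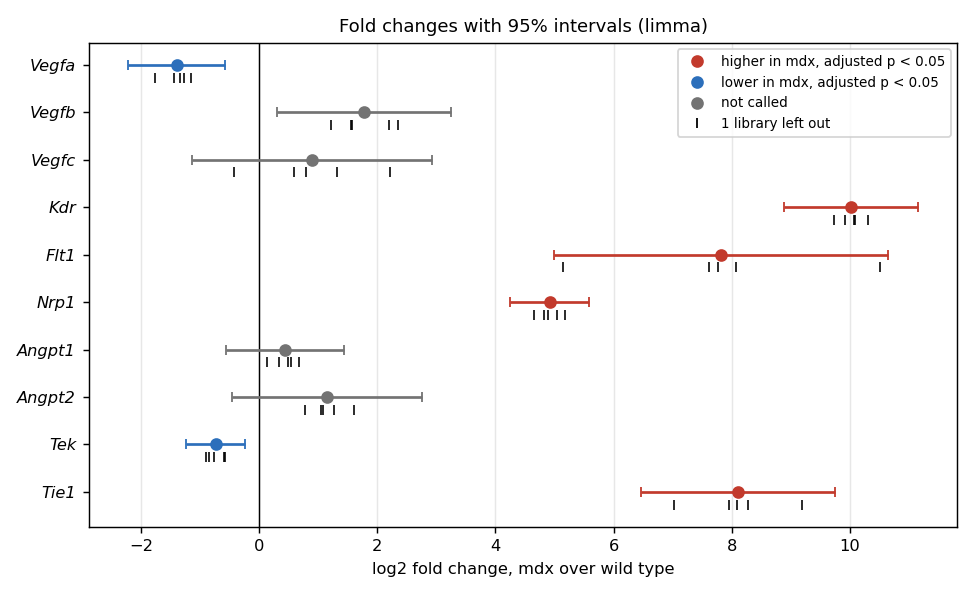
Log2 fold change of each gene, mdx over wild type, with its 95% interval from limma (circles and bars); small ticks under each circle give the value when 1 library is left out. Intervals of Kdr, Flt1, Nrp1 and Tie1 lie above 4, those of Vegfa and Tek lie wholly below 0, and the Vegfc, Angpt1 and Angpt2 intervals span 0; that of Vegfb lies above 0, but its adjusted p is over 0.05.

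Promoter sequences are shown for the 4 receptor genes that rose and for Tek, which did not, since ETS factors, whose binding sites share the core GGAA, are known regulators of endothelial genes. Each window runs from 250 bases before to 50 after the transcription start in RefSeq (GRCm38.p6, gene strand): chr5:75978406-75978705, chr5:147725962-147726261, chr4:118489800-118490099, chr8:128358823-128359122 and chr4:94739039-94739338. Capitals mark GGAA on either strand (GGAA or TTCC).
Kdr: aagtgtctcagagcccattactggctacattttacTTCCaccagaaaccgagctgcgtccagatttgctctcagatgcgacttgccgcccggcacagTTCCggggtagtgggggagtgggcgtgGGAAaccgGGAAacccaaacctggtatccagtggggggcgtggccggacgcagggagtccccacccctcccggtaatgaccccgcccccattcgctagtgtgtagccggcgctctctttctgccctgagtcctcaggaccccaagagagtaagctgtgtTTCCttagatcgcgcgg
Flt1: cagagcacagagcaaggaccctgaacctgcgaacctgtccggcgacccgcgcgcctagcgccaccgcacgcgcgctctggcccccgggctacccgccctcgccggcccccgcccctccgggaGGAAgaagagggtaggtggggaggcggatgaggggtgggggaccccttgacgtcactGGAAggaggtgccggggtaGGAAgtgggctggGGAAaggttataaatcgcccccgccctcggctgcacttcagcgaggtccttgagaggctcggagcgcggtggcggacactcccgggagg
Tie1: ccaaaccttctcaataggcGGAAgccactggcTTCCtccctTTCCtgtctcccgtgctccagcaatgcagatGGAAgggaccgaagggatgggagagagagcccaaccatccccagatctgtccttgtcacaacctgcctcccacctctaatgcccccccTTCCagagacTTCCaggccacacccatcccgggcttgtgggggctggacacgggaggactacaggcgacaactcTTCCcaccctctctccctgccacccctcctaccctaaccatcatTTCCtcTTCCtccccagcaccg
Nrp1: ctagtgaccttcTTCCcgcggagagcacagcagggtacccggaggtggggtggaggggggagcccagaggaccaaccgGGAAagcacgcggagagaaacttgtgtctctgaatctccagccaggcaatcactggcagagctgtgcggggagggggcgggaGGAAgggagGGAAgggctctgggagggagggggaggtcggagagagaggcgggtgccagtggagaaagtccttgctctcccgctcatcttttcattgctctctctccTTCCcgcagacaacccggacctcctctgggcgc
Tek: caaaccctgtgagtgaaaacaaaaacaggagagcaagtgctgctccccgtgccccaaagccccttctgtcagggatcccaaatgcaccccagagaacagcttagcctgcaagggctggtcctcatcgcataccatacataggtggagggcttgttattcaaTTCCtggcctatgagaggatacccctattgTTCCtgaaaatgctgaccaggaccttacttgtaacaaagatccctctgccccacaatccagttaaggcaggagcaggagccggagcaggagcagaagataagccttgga

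The core was found 9 times in the Tie1 window, 5 times in the Kdr and Nrp1 windows, 4 times in the Flt1 window and 2 times in the Tek window. The core is common: 96.0% of 32851 such windows of all genes hold it at least once, 28.6% hold it 5 times or more and 1.6% 9 times or more, while 84.6% hold it at least 2 times. RefSeq windows were matched for 8 of the 10 genes, with 2 windows for Vegfa, and all 9 windows hold the core. The GC box GGGCGG was in 7 of the 9 windows, against 35.7% of all windows, but in neither the Tek nor the Tie1 window. The hypoxia response core ACGTG was in 1 of the 9, the downstream Vegfa window, which lies inside the gene, against 19.6% of all windows. The Vegfa window at the start of the gene did not hold it. GATA was in 3 of the 9 (57.9% of all), CANNTG, the E-box, in 5 (72.3%), and TATAAA in 1, that of Flt1 (13.6%). Both strands were searched, and 1 match of another motif, in the Tie1 window, overlapped a GGAA. The Tek window held 52.0% G and C and 3 CG dinucleotides, near or below the medians of all windows (52.7% and 7). The windows of the receptor genes that rose held 7 CG dinucleotides for Tie1, 14 for Nrp1, 19 for Kdr and 29 for Flt1. These are letter matches in fixed windows and not measured binding sites.

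Among the ligands, Vegfa was the only gene to pass. Vegfa, the principal angiogenic VEGF and a target of hypoxia signalling (chromosome 17, 46016993 to 46032369, minus strand), had 876, 375 and 449 normalized counts in mdx, against 1441 and 1345 in wild type. All mdx libraries were below both wild-type libraries, with mdx 1 well above mdx 2 and mdx 3. Vegfa fell 2.63-fold (log2 fold change −1.39, SE 0.36, 95% interval −2.22 to −0.57, limma adjusted p = 0.0230). The limma adjusted p was 0.0920 without mdx 2 and 0.113 without mdx 3, so the call rested on both of these libraries, and it was 0.0848 under the replicate block. The log2 fold change was negative in all 14 alternative analyses, from −1.76 to −1.15.

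Vegfb, which encodes a ligand of VEGFR1 linked to fatty acid handling (chromosome 19, 6982473 to 6987651, minus strand), had 122, 292 and 303 normalized counts in mdx, against 94 and 42 in wild type. The libraries did not overlap, but the difference did not pass (log2 fold change 1.78, 95% interval 0.31 to 3.25, limma adjusted p = 0.0762), except without wild type 1 (limma adjusted p = 0.00760). Its log2 fold change was 0.91 after removal of trends with transcript length and GC content, with which Vegfb, at 62.6% G and C and 1.281 kb, stands apart from the other 9 genes (39.3% to 57.6% and 2.449 to 6.895 kb).

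As log2((Vegfa + 2)/(Vegfb + 2)), the balance of these ligand transcripts was 2.82, 0.36 and 0.56 in mdx, against 3.91 and 4.94 in wild type. The difference was −3.17, with no overlap, and the exact permutation p = 0.2 is again the smallest possible. Direction, lack of overlap and p had to follow, since Vegfa was lower and Vegfb higher in every mdx library. They add no support. Leaving out 1 library gave −3.96 to −2.66.

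Vegfc, the lymphangiogenic ligand of VEGFR3 (chromosome 8, 54077606 to 54187096, plus strand), had 65, 139 and 185 normalized counts in mdx, against 160 and 24 in wild type. The wild-type libraries alone spanned most of the mdx range, and no difference could be detected (log2 fold change 0.90, 95% interval −1.14 to 2.93, limma adjusted p = 0.496). Without wild type 2 the direction turned (log2 fold change −0.42).

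The angiopoietins were read at low to moderate levels in both genotypes. Angpt1, which encodes the activating ligand of TIE2 (chromosome 15, 42424727 to 42676977, minus strand), had 459, 281 and 216 normalized counts in mdx, against 240 and 209 in wild type. The groups overlapped, and the log2 fold change of 0.43 did not pass (95% interval −0.56 to 1.43, limma adjusted p = 0.502).

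Angpt2, which encodes the context-dependent antagonist of angiopoietin-1 released by activated endothelium (chromosome 8, 18690263 to 18741562, minus strand), had 143, 221 and 69 normalized counts in mdx, against 53 and 62 in wild type. All mdx libraries were higher, mdx 3 only slightly, and the difference did not pass (log2 fold change 1.15, 95% interval −0.45 to 2.76, limma adjusted p = 0.265). The whole of Angpt2 lies within Mcph1, a gene on the opposite strand that read 80, 309 and 203 in mdx and 61 and 4 in wild type. The strand setting of the counting is not given in the sources used here, so reads of the 2 genes could be mixed.

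The ratio of Angpt2 to Angpt1, log2((Angpt2 + 2)/(Angpt1 + 2)), was −1.67, −0.34 and −1.62 in mdx, against −2.14 and −1.72 in wild type. The difference of 0.72 (exact permutation p = 0.2, the smallest possible) was 0.29 without mdx 2, so much of it came from that library.

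To compare levels between genes, normalized counts were divided by the length of the longest annotated transcript in kb. In mdx, Nrp1 had the highest level at 678 ± 104 (SD, n = 3) normalized counts per kb, and its libraries lay above those of every other of the 10 genes. Flt1 (433 ± 129), Kdr (432 ± 57.9) and Tek (376 ± 64.5) followed, with overlapping libraries, and Tie1 (281 ± 63.9) overlapped the lower ends of Flt1 and Tek. Vegfb (187 ± 79.2) and Vegfa (164 ± 78.4), which overlapped each other, came next, and both reached into the range of Tie1. Angpt1 (74.8 ± 29.5), Vegfc (52.9 ± 24.7) and Angpt2 (40.5 ± 21.4) came last and overlapped one another, and Angpt1 also overlapped Vegfb.

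In wild type the order was another. Tek led with 622 ± 99.5 (SD, n = 2) normalized counts per kb, above Vegfa with 404 ± 19.7, and both stood clear of the rest. Vegfb (53.1 ± 28.7), Angpt1 (52.7 ± 5.15) and Vegfc (37.6 ± 39.3) overlapped one another. Next by mean, Nrp1 (22.1 ± 5.63) lay above Angpt2 (16.2 ± 1.79), followed by Flt1 (5.80 ± 8.20), Tie1 (0.83 ± 1.17) and Kdr (0.084 ± 0.119). The libraries of Vegfc were so far apart that they also spanned Nrp1 and Angpt2 and reached Flt1, and Flt1, Tie1 and Kdr overlapped at the low end. In wild type, the receptor Tek and the ligand Vegfa were therefore the only abundant genes of the 10. Per kb, the level of Tek exceeded that of 93.1% of genes in mdx and 94.7% in wild type, while that of Kdr exceeded 94.4% in mdx and 16.8% in wild type.

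Setting the receptors beside other endothelial transcripts separated them further. Kdr amounted to 10.7%, 9.79% and 10.3% of the summed normalized counts of the 20 endothelial markers in mdx, against 0.122% and 0% in wild type. For Tie1 these shares were 5.31%, 3.70% and 5.34% in mdx, against 0% and 0.937% in wild type. Nrp1 amounted to 9.32%, 11.3% and 9.22% in mdx, against 8.02% and 12.7% in wild type, so that its share of this sum overlapped between the genotypes although its level differed 30.2-fold. That overlap rested on Ets1, Eng and Pecam1, which made up 685 and 459 of the 823 and 747 normalized counts in wild type. Over the other 17 markers, an alternative added after seeing the data, Nrp1 amounted to 12.7%, 15.1% and 11.8% in mdx, against 47.8% and 33.0% in wild type. Flt1 amounted to 13.9%, 12.5% and 9.17% in mdx, against 0% and 10.7% in wild type. Over the same 17 markers its shares were 19.0%, 16.8% and 11.7% in mdx, against 0% and 27.8% in wild type. Kdr and Tie1 kept their direction over these 17 markers. In wild type, though, their shares rested on at most 1 and 7 normalized counts, over sums of 138 and 288. As 7 of the 20 endothelial markers were at 0 in both wild-type libraries, such low shares were not particular to Kdr and Tie1. Tek stood apart, with 5.21%, 7.23% and 9.08% in mdx, against 392% and 344% in wild type: in wild type its count was more than 3 times the sum of all 20 endothelial markers. The endothelial markers were called higher in mdx in 20 of 20 cases (median log2 fold change 6.83, or 6.67 with genes at 0 in both wild-type libraries set against a floor of 3 counts per library). Cdh5, which encodes the endothelial cadherin, read 4819, 4253 and 4505 in mdx, against 12 and 45 in wild type. Aqp1, the marker of this list with the smallest p, read 5563, 6308 and 5510 in mdx, against 58 and 45 in wild type.

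Relative to Pax7, the satellite cell marker, Tek read 11.2%, 18.4% and 13.5% in mdx, against 35.4% and 33.6% in wild type, and Vegfa 6.86%, 3.85% and 3.00% in mdx, against 15.8% and 17.6%. For both genes all mdx libraries lay below the wild-type ones on this scale. This had to follow, since Pax7 was higher and both genes lower in every mdx library, so it adds no support. Of 12 satellite cell markers, 3 were called higher and 6 lower, against 14.6% and 10.3% of all tested genes. The other 3 were not called, and the median log2 fold change of the 12 was −0.63. The higher calls were Fgfr4, Itga7 and Cdh15, chosen after their values were seen. They numbered 0 once length and GC trends were removed, 0 without trend and robust weighting, 0 under the replicate block, 1 without mdx 1 or mdx 3 and 2 without mdx 2, while the lower calls numbered 4 to 7 over the alternatives. Of those named by smallest p, Sdc4 fell 10.0-fold, Chodl 4.87-fold and Cd34 3.78-fold. These falls were larger than those of Tek (1.66-fold) and Vegfa (2.63-fold), so the direction on such a scale depends on the marker chosen.

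**Figure D3:**
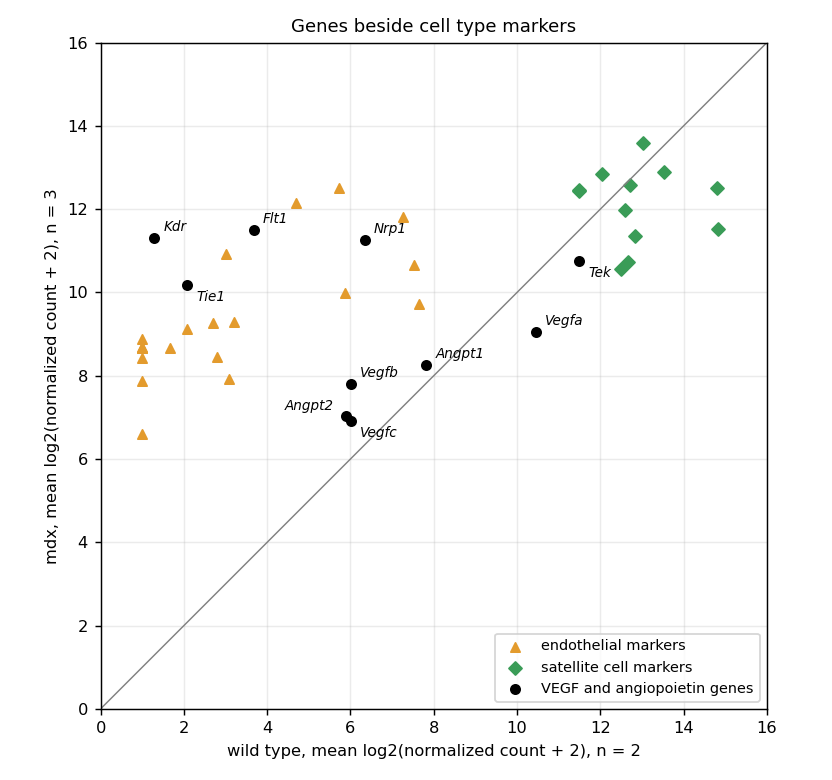
Mean log2(normalized count + 2) in mdx (vertical axis, n = 3) against wild type (horizontal axis, n = 2) for the 10 genes (circles), 20 endothelial markers (triangles) and 12 satellite cell markers (diamonds); the line marks equal means. Kdr, Flt1, Tie1 and Nrp1 lie in the area of the endothelial markers, and Tek lies near the satellite cell markers, just under the line. Markers of other cell types are not drawn. Some of them, such as the macrophage marker Lyz2 and the smooth muscle marker Myh11, were also far higher in mdx, though not all, so this position is not particular to endothelial genes.

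Markers of other vessel-associated cells also differed. Over all tested genes, 14.6% were called higher and 10.3% lower, the shares to set beside the counts of each marker list below. Of 11 pericyte and smooth muscle markers, cells known to release angiopoietin-1, 4 were called higher and 1 lower, with sums of 19778 to 27172 in mdx and 10959 to 13848 in wild type. Myh11, encoding smooth muscle myosin, read 1305, 1688 and 1220 in mdx, against 2 and 0 in wild type. Rgs5, a pericyte marker, read 2862, 2017 and 2399 in mdx, against 33 and 148 in wild type. Pdgfrb, of the same list, read 950, 918 and 654 in mdx, against 175 and 89 in wild type. The marker called lower, chosen after its values were seen, was Tagln, a smooth muscle gene, at 22, 0 and 8 in mdx against 168 and 213 in wild type (limma adjusted p = 0.0286), a call that ended without wild type 2, mdx 2 or mdx 3 (limma adjusted p = 0.0950, 0.0536 and 0.0896). Acta2, Cnn1, Abcc9, Notch3, Kcnj8 and Ndufa4l2 were not called. Of 6 lymphatic markers, 2 were called higher and 1 lower. The lymphatic marker Lyve1, chosen after its values were seen, read 14, 31 and 17 in mdx and 0 in both wild-type libraries and was not called (limma adjusted p = 0.0840). Pdpn, which encodes podoplanin, fell to 912, 1201 and 1457 in mdx, against 2824 and 2314 in wild type (limma adjusted p = 0.0109), a call that ended without mdx 2 (limma adjusted p = 0.0574). Prox1, the lymphatic transcription factor, read 3408, 3868 and 4391 in mdx, against 2725 and 2439 in wild type, abundant in both genotypes. Its call was lost under 9 of 14 alternatives, among them leaving out wild type 2 or any mdx library (limma adjusted p = 0.0665 to 0.141). Reln read 156, 174 and 97 in mdx and 0 in both wild-type libraries (limma adjusted p = 0.00325). Macrophage markers were higher in 9 of 12 cases and fibro-adipogenic progenitor markers in 8 of 10, with 1 progenitor marker lower. The macrophage markers with the smallest p were Lyz2, Csf1r and Mrc1, all higher. Among the progenitor markers they were Col1a1 and Smoc2, both higher, and Dpt, the lower one, which fell 4.80-fold. Without mdx 1, 2 or 3 the higher progenitor markers numbered 4, 5 and 4, and without trend and robust weighting 3. The higher macrophage markers numbered 6 without mdx 3. The part of any of these cell types in the levels of the 10 genes was not tested.

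Further ligands, receptors and receptor partners of these pathways, from a list of 20 symbols of which 19 were in the table, rose more often than they fell. Of 17 tested, 11 were called higher and 1 lower, against 14.6% and 10.3% of all tested genes. The other 5 were not called, and the median log2 fold change was 2.05 (the same with genes at 0 in wild type set against the floor). Ptprb, which encodes VE-PTP, the endothelial phosphatase that acts on TIE2, read 7591, 7030 and 5276 in mdx and 0 in both wild-type libraries (limma adjusted p = 9.42e-07). Nrp2, the co-receptor paired with VEGFR3, read 1600, 2401 and 1520 in mdx, against 3 and 0 (limma adjusted p = 2.32e-05). The plexin genes Plxna1 and Plxnd1, which encode semaphorin receptors that partner with neuropilins, rose 14.5-fold and 3.85-fold, though Plxnd1 was not called once length and GC trends were removed (limma adjusted p = 0.211).

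Of the remaining receptors and ligands, chosen after their values were seen, Flt4, encoding VEGFR3, read 300, 179 and 191 in mdx and 0 in both wild-type libraries (limma adjusted p = 0.00128). Pgf, encoding placental growth factor, a ligand of VEGFR1, read 158, 75 and 51 in mdx, against 0 and 4 in wild type (limma adjusted p = 0.0187), a call that ended without any 1 of the mdx libraries (0.0563 to 0.0624). Vegfd and Angpt4 did not pass the filter, with at most 47 and 42 normalized counts in any mdx library and 0 in wild type. Itgb1, the integrin chain called lower, read 7756, 8871 and 8797 in mdx, against 14742 and 11798 in wild type. That call ended without wild type 1 or any mdx library (limma adjusted p = 0.0664 to 0.0991), and its log2 fold change of −0.64 turned to 0.22 under quantile normalization.

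Genes that relay or dampen the signal differed in part. Of 31 tested, 10 were called higher and 1 lower, against 14.6% and 10.3% of all tested genes. The other 20 were not called, and the median log2 fold change was 0.61 (the same against the floor). Over all tested genes, the higher calls fell from 2659 to between 1163 and 1855 under the settings that follow. In this list they numbered 6, 4 and 5 without mdx 1, 2 and 3, and 3 under the replicate block. They numbered 5 without trend and robust weighting and 6 once length and GC trends were removed. Those named by smallest p were Dll4, the Notch ligand induced by VEGF in tip cells, at 485, 385 and 327 in mdx and 0 in both wild-type libraries (limma adjusted p = 0.000342), Vav2, a guanine nucleotide exchange factor gene, which rose 2.82-fold, Prkcb, a protein kinase C gene, and Nos3, the endothelial nitric oxide synthase gene. Prkcb read 61, 200 and 99 in mdx and 0 in both wild-type libraries (limma adjusted p = 0.00646, but 0.0516 under the replicate block). The rise of Vav2 was not called once length and GC trends were removed (limma adjusted p = 0.202), and that of Nos3, at 222, 366 and 341 in mdx against 0 and 33 in wild type, not without mdx 1, 2 or 3 (0.0700, 0.0817 and 0.0886). Among widely expressed relay genes, chosen after their values were seen, Plcg1, Pik3ca and Akt1 did not pass, while Ptk2 and Src were called higher (limma adjusted p = 0.0427 and 0.0470). Both of these calls ended without wild type 2 or any mdx library (limma adjusted p = 0.0511 to 0.120 for Ptk2 and 0.0943 to 0.169 for Src). Plcg1 read 3725, 3143 and 2826 in mdx, against 2443 and 2301 in wild type. The gene called lower was Foxo1, also chosen after its values were seen, a target of TIE2 signalling through AKT, at 2228, 2094 and 2104 in mdx against 2972 and 3445 in wild type (limma adjusted p = 0.0432), a call lost without wild type 2 (0.214) or any mdx library (0.0831 to 0.0970).

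Vegfa is a textbook target of hypoxia-inducible factors, and 15 genes of that control were tested. Of these, 3 were called higher, 1 lower and 11 not (median log2 fold change 0.84). These counts are near the shares over all tested genes, 14.6% higher and 10.3% lower. Epas1, encoding HIF-2α, which is prominent in endothelium, read 4719, 4159 and 4697 in mdx, against 106 and 126 in wild type, a rise of 38.4-fold (limma adjusted p = 2.95e-06). Hif1a, chosen after its values were seen, read 1917, 2060 and 1332 in mdx, against 719 and 1356 in wild type, and did not pass (limma adjusted p = 0.0885). Vhl, whose product marks HIF proteins for degradation, fell to 66, 201 and 214 in mdx, against 547 and 533 in wild type (limma adjusted p = 0.0357). The calls of Vhl, of the HIF prolyl hydroxylase gene Egln2 and of the glycolytic regulator gene Pfkfb3 (Egln2 and Pfkfb3 higher in mdx, limma adjusted p = 0.0315 and 0.0325) all ended without mdx 1, 2 or 3. Egln2 was also lost without wild type 2 (0.0965) and Pfkfb3 without wild type 1 (0.112).

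Over the 3 lists, 24 of 63 tested genes were called higher, 3 lower and 36 not, against 14.6% and 10.3% of all tested genes. Without mdx 2 or mdx 3 the higher calls numbered 13 and 14, and without mdx 1 they numbered 16; the 3 lower calls were all lost without any 1 mdx library, and without wild type 2 they numbered 5.

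**Figure D4:**
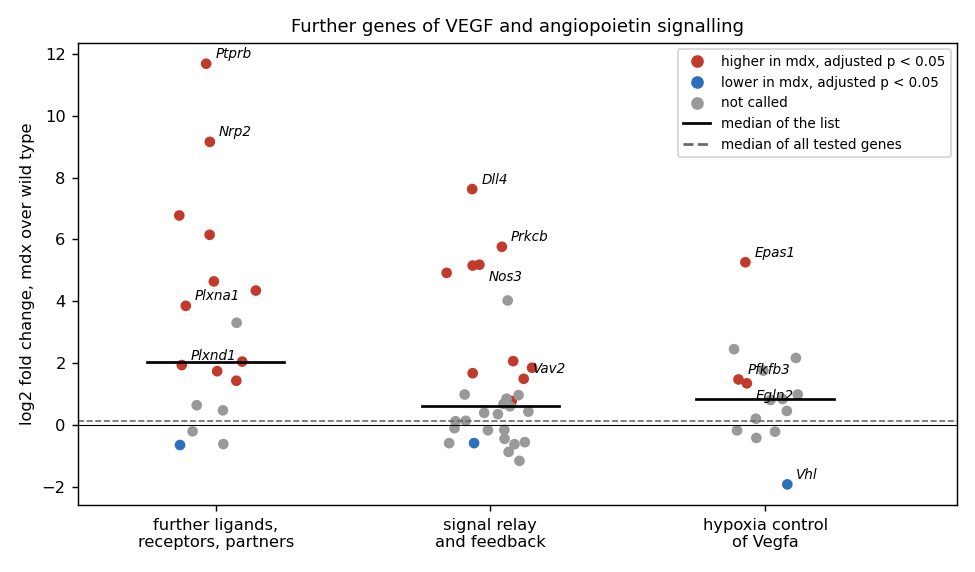
Log2 fold change, mdx over wild type, of the tested genes in 3 further lists of VEGF and angiopoietin signalling (points, 17, 31 and 15 genes), with the list medians (2.05, 0.61 and 0.84, solid bars) and the median of all tested genes (0.13, dashed line). Up to 4 called genes with the smallest p are named in each list. The highest log2 fold changes, of Ptprb (11.68) and Nrp2 (9.155), are in the list of ligands, receptors and receptor partners. Other large ones are in the signal relay list, such as Dll4 (7.629), and in the hypoxia list (Epas1, 5.264). Genes at 0 in both wild-type libraries are drawn at their fitted value, which depends on the added 2.

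The genes whose profile over the 5 libraries was nearest to that of Kdr, by Euclidean distance between centred log2(normalized count + 2) values, were Col6a3 (distance 0.43), Igfbp3 (0.66) and Col1a2 (0.67), of which Col1a2, a type I collagen gene, is known as a fibroblast gene. Nearest to Tek were Ccdc126 (0.053), Nfyc (0.085) and Dynll2 (0.147), none of which passed the test. With 5 libraries in 2 groups, such distances mostly reflect the size of the difference between the genotypes.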

How the data were processed

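RNA-seq libraries from sorted quiescent satellite cells (3 mdx, 2 wild type) were made with a stranded low-input kit from total RNA of 10000 to 20000 cells each, per the labels' protocols. STAR 2.6.1d, featureCounts 1.6.3, DESeq2 1.18.1 and the build mm10 are named in the submitters' processing notes. The deposited values are normalized counts rounded by the authors, treated as a score: all 5 columns shared nearly 1 median ratio to gene means (1.0347 to 1.0355), and mdx 1 never takes 6 of the values between 1 and 30. From this spacing, 1 read was worth 0.86 to 1.245, giving an estimated 12800000 to 19600000 reads per library. Raw counts could not be restored, so no count model was used.

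Genes with at least 10 normalized counts in at least 2 libraries (18199) were tested on log2(value + 2) with limma 3.58.1 in R 4.3.3 (genotype as the only term, trend and robust empirical Bayes, two-sided, Benjamini-Hochberg adjustment). The steps were tested on simulated data. Fold changes are on that scale, which understates those of low genes, and are relative to the typical gene. Ratios of 2 genes were compared by exact permutation tests (scipy 1.17.1). Transcript length and GC content came from the longest transcript in GENCODE release M21 (22649 of 22683 genes matched), and promoters from RefSeq. From each further list, up to 4 called genes (3 for marker lists) with the smallest p are named. Other genes are described as chosen after their values were seen. The 10 genes and all lists were chosen with earlier results of these data known. Alternatives varied the pseudocount, filter, scaling, variance model, replicate block and library set.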

Additional observations from a re-analysis of the deposited data

How the results depend on the processing

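Under 14 alternatives, the calls of Kdr, Nrp1 and Tie1 as higher were kept in all, and that of Flt1 in all but the analysis without a filter. Between 3 and 5 of the 10 genes were called higher. The 2 lower calls (Tek and Vegfa) became 1 with equal library totals or quantile normalization, 0 without trend and robust weighting and 0 with the replicate block, and ranged from 0 to 2 with 1 library left out. Over all genes, 2659 were called higher and 1868 lower (58.7% higher). The counts were 1772 and 2003 (46.9%) after length and GC correction, 1163 and 860 with the block, 1855 and 1150 without trend and robust weighting, and 2808 and 1345 (67.6%) with equal totals. With 1 library left out they ranged from 1450 to 3308 higher and from 1112 to 1853 lower. Of the further pathway genes, 24 were higher and 3 lower. Higher calls were 12 with the block and ranged from 13 to 28 with 1 library left out. Lower calls were 0 with equal totals, without trend and robust weighting or with the block, 1 with quantile normalization, 6 after length and GC correction, and ranged from 0 to 5 with 1 library left out. Directions turned for Vegfc without wild type 2 (−0.42, range −0.42 to 2.22 with 1 library left out), Pax7 after length and GC correction (−0.35) and Itgb1 with quantile normalization (0.22). The cause was not tested. The medians of all genes were 0.13 under the authors' scaling, 0.31 with equal totals, 0.00 with quantile normalization and −0.03 after length and GC correction, and the direction of each of the 10 genes relative to that median was the same under all 4. Same-numbered libraries did not deviate together (correlation −0.017 across 18199 genes), so the numbers are not taken as pairs. Number 3 occurs only in mdx, so the replicate block gives the log2 fold changes of the fit without mdx 3. These 2 alternatives are therefore not separate estimates. Where 1 wild-type library remains, its spread is assumed to equal that of mdx. With 1 or few reads in wild type, the size of the Kdr and Tie1 differences is limited by counting.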
